A study of Mus musculus with 12 samples.

Results

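The genes described here are 9 enzymes of serine and one-carbon metabolism, Phgdh, Psat1, Psph, Shmt1, Shmt2, Mthfd1, Mthfd2, Mthfd1l and Tyms, chosen by name. Earlier results of these data were known when the 9 genes and the wider lists were chosen. Counts of them set beside shares of all genes are therefore descriptions, not independent tests. Each of them had 1 row among the 25078 genes of the count table. RNA-Seq was performed on donor T cells recovered from the liver of BALB/c mice at 6 days after allogeneic hematopoietic cell transplantation (HCT), a model of graft-versus-host disease in which donor T cells attack the tissues of the recipient. The recipients were WT BALB/c mice that had received a lethal dose of irradiation. Each was given donor CD90.2+ T cells of 1 of 3 genotypes, along with WT C57BL/6 marrow from which T cells had been removed. Donor cells (H-2Kb+TCRβ+) were then sorted as CD4+ or CD8+. WT donors were C57BL/6. STAT3ko donors carried Stat3 fl/fl with CD4-Cre, a Cre driven by the Cd4 promoter that is active in the thymus in the precursors of both subsets. STAT3ko PD-1ko donors carried the same Stat3 alleles with a germline loss of PD-1, the inhibitory receptor encoded by Pdcd1. All groups shared the irradiated recipient strain, the WT marrow and the day of sampling. There was no group that lacked PD-1 alone, so STAT3ko PD-1ko differed from WT in both genes and from STAT3ko in PD-1. Each of the 6 groups had 2 libraries, each made from cells combined from 3 recipients according to the methods of the study, and total counts ran from 21676125 to 24551477 per library.

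Serine is made from a glycolytic intermediate by PHGDH, PSAT1 and PSPH, in that order. SHMT1 in the cytosol and SHMT2 in mitochondria then pass a carbon of serine to tetrahydrofolate and leave glycine. In mitochondria, MTHFD2 and MTHFD1L oxidise that carbon and release it as formate, and in the cytosol MTHFD1 takes up formate again to feed purine synthesis and TYMS, which methylates dUMP to dTMP for DNA. Activated T cells are known to draw on this route while they divide.

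The promoters of 3 of these genes are shown: Shmt1 had the widest range of levels over the 12 libraries, Mthfd2 the narrowest, and Tyms was the gene nearest to DNA synthesis. Each is the 250 bases before the RefSeq start (GRCm38.p6, the same coordinates as the mm10 gene starts in the files), read on the gene's own minus strand. Capitals mark CCAAT, on either strand (ATTGG when reversed), or the E-box CACGTG.
Shmt1 (chr11:60811266-60811515): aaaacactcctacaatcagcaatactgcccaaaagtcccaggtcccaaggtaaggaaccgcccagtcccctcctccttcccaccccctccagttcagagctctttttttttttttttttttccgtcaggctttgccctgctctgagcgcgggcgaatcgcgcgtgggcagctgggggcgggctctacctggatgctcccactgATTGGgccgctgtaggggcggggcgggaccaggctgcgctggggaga
Mthfd2 (chr6:83317605-83317854): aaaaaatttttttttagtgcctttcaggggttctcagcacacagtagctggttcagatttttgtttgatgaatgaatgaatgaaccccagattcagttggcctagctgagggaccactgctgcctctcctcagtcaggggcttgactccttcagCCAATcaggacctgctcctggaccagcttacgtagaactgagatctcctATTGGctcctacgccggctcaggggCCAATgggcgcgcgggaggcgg
Tyms (chr5:30073626-30073875): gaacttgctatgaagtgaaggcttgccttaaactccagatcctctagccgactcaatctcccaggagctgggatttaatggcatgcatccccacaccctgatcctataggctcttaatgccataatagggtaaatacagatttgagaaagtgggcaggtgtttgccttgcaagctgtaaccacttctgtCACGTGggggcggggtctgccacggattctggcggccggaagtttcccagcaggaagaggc

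RefSeq promoters were found for all 9 genes, 10 windows in all because Psat1 has a second start. CCAAT was in the windows of 6 of the 9 genes (Phgdh, Psat1, Psph, Shmt1, Mthfd1 and Mthfd2), against 33.8% of all 32851 promoter windows of the same length. The E-box was in the Tyms window alone among the 9 genes and in 6.02% of all windows. Neither TGATGNAA, the form recognised by ATF4 with C/EBP proteins, nor TTTNGCGC, an E2F-type motif, was found on either strand in any window of the 9 genes, and these were in 3.45% and 1.13% of all windows. The 4 motifs were chosen after the values were seen, and none of them contains another. CCAAT was present both in genes that rose in STAT3ko PD-1ko over WT (Shmt1) and in genes that passed no test over WT (Psph and Mthfd2), and absent from others that rose over WT (Shmt2 and Mthfd1l). A match of letters is a description of the sequence and does not show that a factor binds there.

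The targeted genes were examined first. Stat3 stood at 369 and 467 CPM (TMM-scaled CPM, the count as a share of library size) in the WT CD4 libraries, at 139.9 and 164 in STAT3ko and at 157 and 219 in STAT3ko PD-1ko. The CD8 libraries held 397 and 384 CPM of Stat3 in WT, 149 and 136 in STAT3ko and 154 and 235 in STAT3ko PD-1ko. Stat3 was therefore lower in every library of both deleted genotypes than in any WT library. Against WT, STAT3ko had a log2 fold change of -1.46 in CD4 (SE 0.22, adjusted p = 0.055) and -1.46 in CD8 (SE 0.20, adjusted p = 0.108), past the threshold in neither, while STAT3ko PD-1ko fell by 1.13 and by 1.00 on the log2 scale (adjusted p = 0.018 and 0.0177). In CD4, where libraries with the same number deviated together, a fit with the replicate number as a block called Stat3 in STAT3ko as well (log2 fold change -1.45, SE 0.12, adjusted p = 0.00197). Pdcd1 stood at 247 and 235 CPM in WT CD4 and at 55.1 and 26.0 in STAT3ko PD-1ko CD4, and at 376 and 307 in WT CD8 and at 93.6 and 65.6 in STAT3ko PD-1ko CD8, a fall by 2.55 and by 2.09 on the log2 scale (adjusted p = 0.00566 and 0.00243). Counts over a whole gene include exons outside a deleted part, so remaining reads do not give the share of cells that kept the gene. Cd4 ran from 1242 to 1887 CPM in the CD4 libraries and from 0.356 to 2.73 in the CD8 libraries, and Cd8a from 589 to 1339 in the CD8 libraries and from 0.424 to 5.64 in the CD4 libraries, so each library carried the marker of its label.

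The 9 genes lie on 7 chromosomes (mm10): Phgdh at chr3:98313171-98339969, Psat1 at chr19:15905123-15925059, Psph at chr5:129765558-129787253, Shmt1 at chr11:60788897-60811265, Shmt2 at chr10:127517123-127522444, Mthfd1 at chr12:76255232-76319820, Mthfd2 at chr6:83305704-83317604, Mthfd1l at chr10:3973075-4167081 and Tyms at chr5:30058200-30073625. Shmt2 overlaps Ndufa4l2, and reads in the overlap could not be assigned with certainty.

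All 9 genes passed the filter on low counts in every fit. Between genes, levels were compared as the RPKM values of the deposited table, which divide by gene length. By the median over the 12 libraries the order was Psat1 (64.8 RPKM), Shmt2 (45.6), Mthfd1l (41.9), Mthfd2 (41.5), Mthfd1 (28.9), Psph (26.6), Tyms (20.1), Shmt1 (16.4) and Phgdh (16.0). The ranges over the 12 libraries overlapped for every pair of neighbours in this order. The order was not the same in every group: Shmt1 was the lowest in WT and STAT3ko CD4 (7.59 and 5.75 RPKM) and stood sixth in STAT3ko PD-1ko CD4 and CD8 (26.6 and 39.9), where Phgdh and Tyms were the 2 lowest. Between its lowest and highest library, Shmt1 ranged 7.27-fold in CPM, Shmt2 4.47-fold and Mthfd1 3.48-fold. Psph ranged 1.95-fold and Mthfd2 only 1.42-fold.

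**Figure D1:**
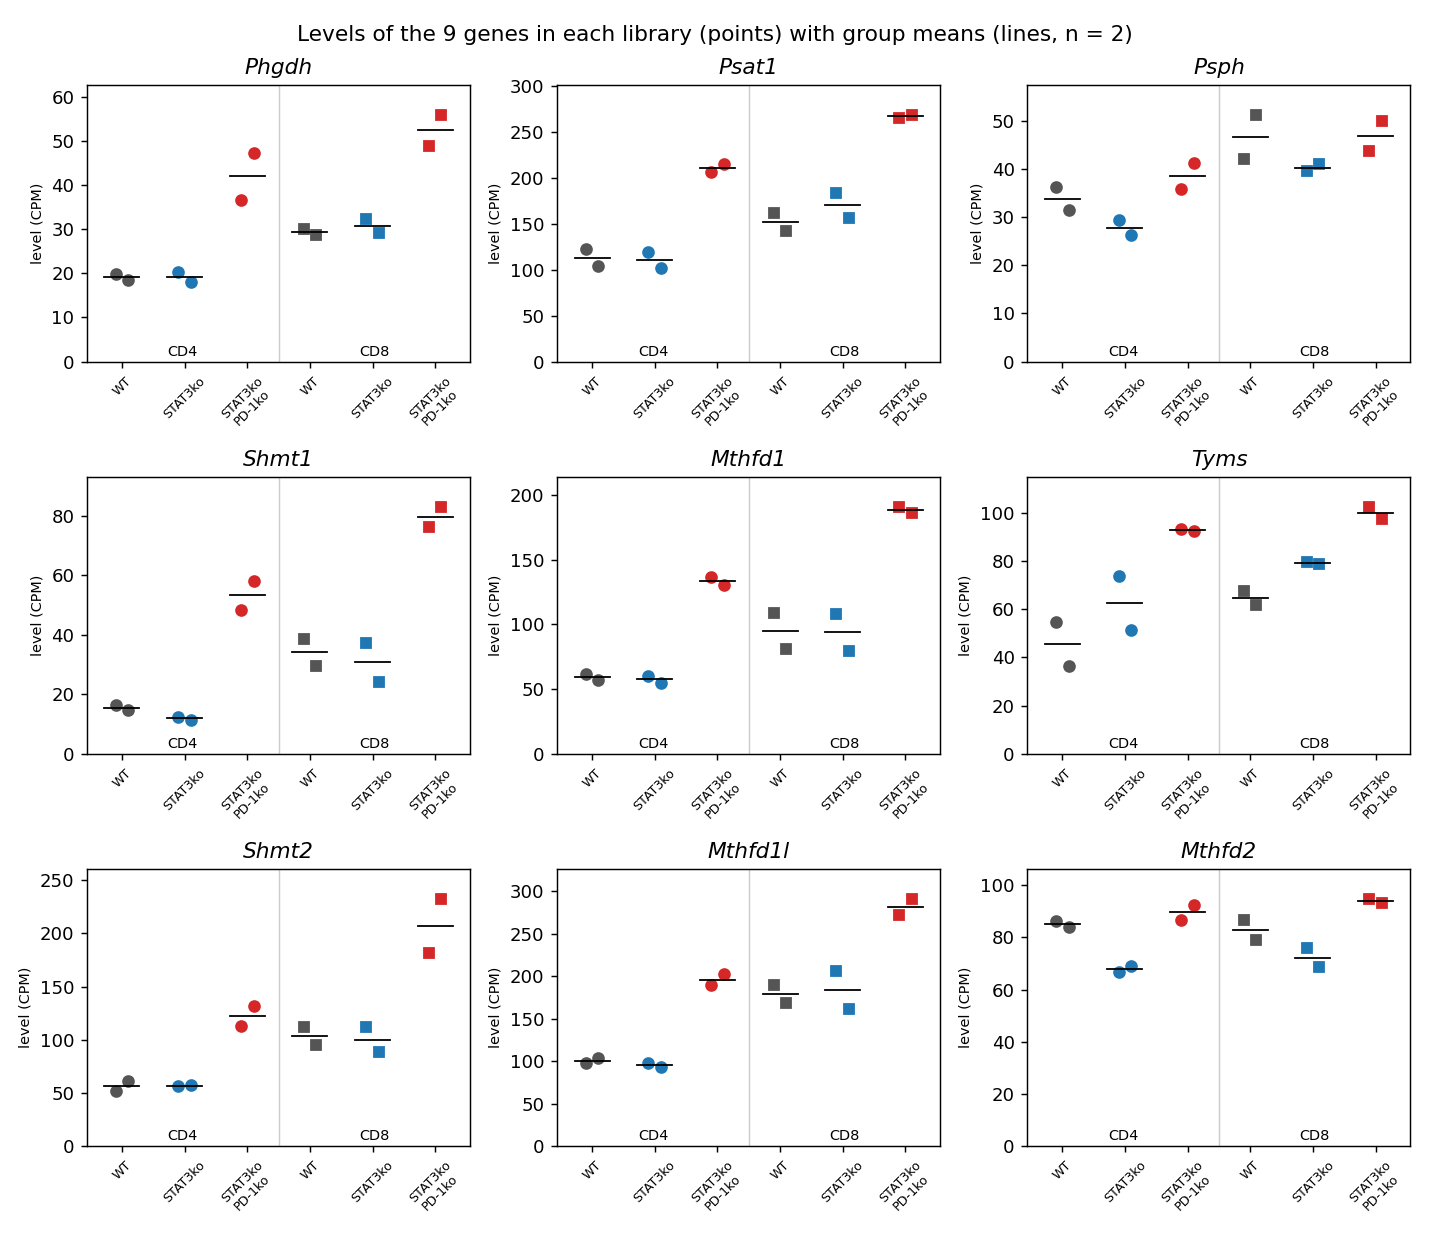
Each panel plots the level of 1 gene (y axis, CPM from 0) in the 12 libraries, with the 6 groups along the x axis, points for libraries (circles CD4, squares CD8) and lines for means of 2. The STAT3ko PD-1ko points (red) stand above the other genotypes of their subset for Phgdh, Psat1, Shmt1, Mthfd1, Tyms, Shmt2 and Mthfd1l. They also do so, by less, for Mthfd2, which stays between 66.8 and 94.8 CPM throughout, while Psph stays between 26.2 and 51.2 CPM.

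The question put to these libraries was how loss of STAT3, and of PD-1 in addition, altered the metabolic genes of T cells in a target tissue. As compared with WT, 0 of the 9 genes passed the test in STAT3ko T cells, a comparison of 2 libraries with 2 in which the deleted Stat3 did not pass it either without the block. As compared with WT, 7 of the 9 rose in STAT3ko PD-1ko T cells in CD4 and in CD8, by 1.90- to 3.48-fold and by 1.56- to 2.36-fold, where 7.21% and 9.01% of all genes rose. As compared with STAT3ko, 6 rose in both subsets, where 6.05% and 8.76% of all genes rose, and with the replicate block all 9 rose in CD4, where 13.2% did. Leaving out 1 library took these counts as low as 1 and 0 over WT and 0 and 0 over STAT3ko. Psph, the last step of serine synthesis, and Mthfd2, the mitochondrial dehydrogenase, passed the test over WT in neither subset, with or without the block.

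The first 2 enzymes of serine synthesis rose over WT and over STAT3ko, and the last passed the test only over STAT3ko in CD4 and only with the replicate block. Phgdh stood at 19.9 and 18.5 CPM in WT CD4 libraries, 20.3 and 18.0 in STAT3ko and 36.6 and 47.3 in STAT3ko PD-1ko. Phgdh levels in CD8 were 29.9 and 28.8 CPM in WT, 32.2 and 29.0 in STAT3ko and 48.9 and 55.9 in STAT3ko PD-1ko. In both subsets WT and STAT3ko overlapped, and both STAT3ko PD-1ko libraries were above all others of their subset. The log2 fold change of Phgdh over WT was 1.15 in CD4 (SE 0.19, adjusted p = 0.0106) and 0.85 in CD8 (SE 0.13, adjusted p = 0.00946).

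Psat1, the aminotransferase of the second step, stood at 122 and 104 CPM in WT CD4 libraries, 119 and 103 in STAT3ko and 207 and 215 in STAT3ko PD-1ko. Psat1 levels in CD8 were 161 and 142 CPM in WT, 184 and 157 in STAT3ko and 265 and 269 in STAT3ko PD-1ko. The order of the groups was that of Phgdh, with WT and STAT3ko overlapping. Against WT, Psat1 had a log2 fold change of 0.92 in CD4 (SE 0.15, adjusted p = 0.0113) and 0.82 in CD8 (SE 0.12, adjusted p = 0.00891).

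Psph, the phosphatase that releases serine, stood at 36.3 and 31.4 CPM in WT CD4 libraries, 29.3 and 26.2 in STAT3ko and 35.8 and 41.2 in STAT3ko PD-1ko. Psph levels in CD8 were 42.0 and 51.2 CPM in WT, 39.5 and 41.0 in STAT3ko and 43.8 and 49.96 in STAT3ko PD-1ko. STAT3ko PD-1ko overlapped with WT in both subsets, and both STAT3ko libraries lay below the WT libraries. Its log2 fold change over WT was 0.21 in CD4 (SE 0.17, adjusted p = 0.448) and 0.02 in CD8 (SE 0.15, adjusted p = 0.95). With the replicate block it rose over STAT3ko in CD4 by a log2 fold change of 0.49 (SE 0.15, adjusted p = 0.0455). Psat1 counts were 3.37 and 3.30 times Psph counts in the WT CD4 libraries, 4.08 and 3.91 times in STAT3ko and 5.76 and 5.23 times in STAT3ko PD-1ko, and in CD8 3.84 and 2.78 times in WT, 4.66 and 3.82 times in STAT3ko and 6.05 and 5.38 times in STAT3ko PD-1ko. These ratios, which do not depend on the scaling between libraries, were chosen after the values were seen and are given without a test.

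Of the cytosolic enzymes, Shmt1 rose most among the 9 genes in all 4 comparisons of STAT3ko PD-1ko. Shmt1 stood at 16.5 and 14.6 CPM in WT CD4 libraries, 12.3 and 11.4 in STAT3ko and 48.5 and 58.1 in STAT3ko PD-1ko. Shmt1 levels in CD8 were 38.6 and 29.6 CPM in WT, 37.2 and 24.3 in STAT3ko and 76.4 and 83.0 in STAT3ko PD-1ko. Neither STAT3ko PD-1ko pair came near another group of its subset. The log2 fold change over WT was 1.80 in CD4 (SE 0.18, adjusted p = 0.00321) and 1.24 in CD8 (SE 0.22, adjusted p = 0.0135), and over STAT3ko it was 2.18 in CD4 (SE 0.18, adjusted p = 0.00332), or 4.55-fold, and 1.39 in CD8 (SE 0.22, adjusted p = 0.0109).

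Mthfd1, the cytosolic enzyme that interconverts folate-bound carbons, stood at 62.0 and 57.2 CPM in WT CD4 libraries, 60.0 and 54.8 in STAT3ko and 137 and 129.97 in STAT3ko PD-1ko. Mthfd1 levels in CD8 were 109 and 81.0 CPM in WT, 108 and 79.4 in STAT3ko and 191 and 186 in STAT3ko PD-1ko. WT and STAT3ko CD8 libraries with the same number were almost alike and differed more between numbers than between genotypes. Over WT, its log2 fold change was 1.18 in CD4 (SE 0.14, adjusted p = 0.00474) and 1.00 in CD8 (SE 0.19, adjusted p = 0.0159).

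The STAT3ko mean of Tyms lay between WT and STAT3ko PD-1ko in both subsets. Tyms stood at 54.8 and 36.6 CPM in WT CD4 libraries, 74.0 and 51.6 in STAT3ko and 93.5 and 92.4 in STAT3ko PD-1ko. Tyms levels in CD8 were 67.5 and 61.8 CPM in WT, 79.7 and 78.7 in STAT3ko and 103 and 97.3 in STAT3ko PD-1ko. WT and STAT3ko overlapped in CD4 and did not in CD8. Against WT, the log2 fold change of STAT3ko PD-1ko was 1.05 in CD4 (SE 0.24, adjusted p = 0.0298) and 0.64 in CD8 (SE 0.11, adjusted p = 0.0129). Over STAT3ko it was 0.59 in CD4 (SE 0.24, adjusted p = 0.148) and 0.35 in CD8 (SE 0.11, adjusted p = 0.0707), past the threshold in neither subset, and with the replicate block it was 0.62 in CD4 (SE 0.16, adjusted p = 0.0274). The call over WT in CD8 was lost when all 12 libraries were fitted together (adjusted p = 0.055), and the call over STAT3ko in CD8 was gained with DESeq2 (adjusted p = 0.0396). A processed copy, Tyms-ps, had its own row with 153 to 385 counts per library, so some Tyms reads may have been placed there or left uncounted.

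Of the mitochondrial enzymes, Shmt2 and Mthfd1l rose over WT and over STAT3ko. Mthfd2 passed no test over WT, and over STAT3ko its call depended on the fit. Shmt2 stood at 52.0 and 60.9 CPM in WT CD4 libraries, 56.6 and 57.1 in STAT3ko and 113 and 132 in STAT3ko PD-1ko. Shmt2 levels in CD8 were 112 and 94.9 CPM in WT, 112 and 88.0 in STAT3ko and 181 and 232 in STAT3ko PD-1ko. WT and STAT3ko overlapped, and STAT3ko PD-1ko stood apart. Its log2 fold change over WT reached 1.14 in CD4 (SE 0.16, adjusted p = 0.00772) and 1.01 in CD8 (SE 0.18, adjusted p = 0.0136).

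Mthfd1l, which releases formate, stood at 97.7 and 103 CPM in WT CD4 libraries, 98.3 and 93.3 in STAT3ko and 189 and 203 in STAT3ko PD-1ko. Mthfd1l levels in CD8 were 189.6 and 169 CPM in WT, 206 and 162 in STAT3ko and 272 and 291 in STAT3ko PD-1ko. As for Shmt2, WT and STAT3ko overlapped and STAT3ko PD-1ko did not overlap with either. Over WT, Mthfd1l had a log2 fold change of 0.99 in CD4 (SE 0.14, adjusted p = 0.00766) and 0.66 in CD8 (SE 0.14, adjusted p = 0.0223).

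Mthfd2 stood at 86.5 and 83.9 CPM in WT CD4 libraries, 66.8 and 69.0 in STAT3ko and 86.8 and 92.6 in STAT3ko PD-1ko. Mthfd2 levels in CD8 were 86.7 and 78.8 CPM in WT, 75.9 and 68.5 in STAT3ko and 94.8 and 93.0 in STAT3ko PD-1ko. The STAT3ko libraries were the lowest and the STAT3ko PD-1ko libraries the highest in each subset, within a narrow range. Its log2 fold change over WT stood at 0.10 in CD4 (SE 0.14, adjusted p = 0.69) and 0.19 in CD8 (SE 0.12, adjusted p = 0.292), and over STAT3ko it was 0.42 in CD4 (SE 0.14, adjusted p = 0.0921) and 0.39 in CD8 (SE 0.12, adjusted p = 0.0591). Over STAT3ko it was called by DESeq2 in CD4 and CD8 (adjusted p = 0.0454 and 0.0271) with log2 fold changes of 0.41 and 0.38, in CD4 with the replicate block (0.42, SE 0.11, adjusted p = 0.0325), and in CD8 by both limma tests of RPKM (adjusted p = 0.0482 and 0.0497). The fit of all 12 libraries together also called Mthfd2 over STAT3ko in CD4 and CD8 (adjusted p = 0.0309 and 0.0412). Mthfd1l counts were 1.13 and 1.23 times Mthfd2 counts in WT CD4 libraries, 1.47 and 1.35 times in STAT3ko and 2.18 and 2.19 times in STAT3ko PD-1ko, and in CD8 they were 2.19 and 2.14 times in WT, 2.71 and 2.36 times in STAT3ko and 2.87 and 3.13 times in STAT3ko PD-1ko. The STAT3ko ratios thus lay between those of the other genotypes in both subsets.

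In STAT3ko against WT, edgeR called 0 of the 9 genes in CD4 and in CD8, where 0.334% and 0.0583% of all genes tested were called. The largest differences in CD4 were a Tyms log2 fold change of 0.46 (SE 0.24, adjusted p = 0.577), Shmt1 at -0.38 (SE 0.18, adjusted p = 0.519) and Mthfd2 at -0.32 (SE 0.14, adjusted p = 0.473). At an unadjusted p under 0.05, 1 gene passed in each subset, Mthfd2 in CD4 (lower) and Tyms in CD8 (higher), and DESeq2 called 0 in both. Of all genes tested, 1259 of 11959 in CD4 and 1315 of 12002 in CD8 passed at that unadjusted p. The replicate block in CD4 also called 0 of the 9, where 2.53% of all genes were called. Psph and Mthfd2 in both subsets and Shmt1 in CD4 were lower in both STAT3ko libraries than in either WT library, and Tyms in CD8 was higher in both. The share of all genes separated in this way is not given here, so no result about the 9 genes is read from it. The median log2 fold change of the 9 genes was -0.05 in CD4 and -0.02 in CD8, against 0.01 and -0.01 over all genes tested.

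In STAT3ko PD-1ko against WT, 7 of 9 were called in each subset, all of them higher, where 12.9% of all genes tested in CD4 and 17.2% in CD8 were called and 7.21% and 9.01% were called higher. With the replicate block in CD4 the same 7 were called, where 26% of all genes were called and 13.8% were called higher. The median log2 fold change of the 9 was 1.05 in CD4 and 0.82 in CD8, against -0.01 and -0.00 over all genes. Leaving out 1 library lowered these counts: to 4 without WT CD4 replicate 2, to 1 (Shmt1) without either STAT3ko PD-1ko CD4 library, to 3 without STAT3ko PD-1ko CD8 replicate 1, and to 0 without WT CD8 replicate 2 or STAT3ko PD-1ko CD8 replicate 2. Genes called over the whole table fell with them, from 1538 to 62 in CD4 and from 2066 to 111 in CD8 at the lowest. The fold changes of these 7 genes kept their direction in all of these fits.

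In STAT3ko PD-1ko against STAT3ko, 6 of 9 were called higher in each subset (the 7 named above other than Tyms), where 11.1% and 16.8% of all genes were called and 6.05% and 8.76% were called higher. With the replicate block, 9 of 9 were called higher in CD4, where 26% of all genes were called and 13.2% were called higher. The medians were 1.05 in CD4 and 0.66 in CD8, against -0.01 and -0.00 over all genes. The counts fell to 5 without STAT3ko CD4 replicate 2, to 1 without STAT3ko PD-1ko CD4 replicate 1, to 0 without STAT3ko PD-1ko CD4 replicate 2, to 1 without STAT3ko CD8 replicate 2, to 3 without STAT3ko PD-1ko CD8 replicate 1 and to 0 without STAT3ko PD-1ko CD8 replicate 2. Without STAT3ko PD-1ko CD4 replicate 2 the fit called 0 genes of the whole table, and without STAT3ko PD-1ko CD8 replicate 2 it called 2. The comparisons with WT and with STAT3ko share their STAT3ko PD-1ko libraries and are not independent of each other.

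**Figure D2:**
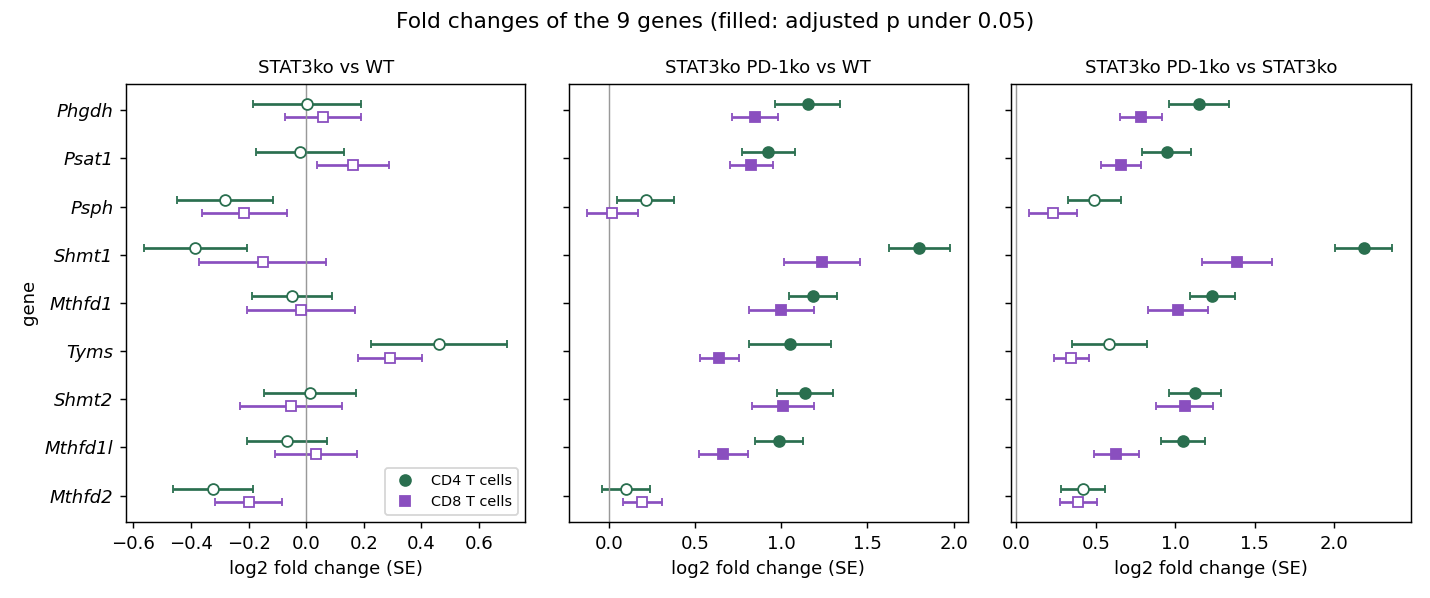
Log2 fold changes of the 9 genes (x axis) with their SE as bars, for CD4 (circles) and CD8 (squares) T cells, in STAT3ko against WT, STAT3ko PD-1ko against WT and STAT3ko PD-1ko against STAT3ko, each panel with its own x scale. Filled symbols passed an adjusted p of 0.05: none on the left, 7 genes per subset in the middle and 6 on the right, with Shmt1 farthest from 0 at 1.80 and 2.18 in CD4.

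Most of these genes were higher in CD8 than in CD4 T cells. Over the mean of the 3 genotypes, 7 of 9 were called higher in CD8 (Phgdh, Psat1, Psph, Shmt1, Shmt2, Mthfd1 and Mthfd1l), where 25.5% of all genes were called and 12.9% were called higher. Shmt1 was 2.04-fold higher (log2 fold change 1.03, SE 0.12, adjusted p = 0.000192), Shmt2 1.76-fold (0.82, SE 0.10, adjusted p = 0.000242) and Mthfd1l 1.70-fold (0.76, SE 0.08, adjusted p = 7.42e-05). Psph was 1.34-fold higher in CD8 (0.43, SE 0.09, adjusted p = 0.00459). Mthfd2 was at 1.03-fold (0.04, SE 0.06, adjusted p = 0.722) and Tyms at 1.24-fold (0.31, SE 0.12, adjusted p = 0.0743). CD4 and CD8 libraries of the same genotype and number deviated together from their group means, and a fit with that pairing as a block called 8 of 9, with Tyms added (adjusted p = 0.0114), and 5590 genes of the whole table in place of 3145. In bulk libraries, a larger share of cells that express a gene and more RNA per cell cannot be told apart.

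The size of the genotype effect was compared between subsets by interaction terms. The fold changes of STAT3ko PD-1ko over WT were smaller in CD8 than in CD4 for 8 of the 9 genes, all but Mthfd2. Over the whole table, 6147 of 12334 genes had a higher log2 fold change in CD8 than in CD4 for that comparison. For the 9 genes, edgeR called 0 of 9 in each of the 3 interactions, as did DESeq2. Of all genes tested, 0%, 0.00811% and 0% were called for STAT3ko over WT, STAT3ko PD-1ko over WT and STAT3ko PD-1ko over STAT3ko, the only gene being Ccl5, a chemokine, named after its value was seen. DESeq2 called 5, 75 and 21 genes, and 228, 547 and 443 had an unadjusted p under 0.05. Shmt1 came nearest among the 9, with a difference of log2 fold changes of -0.79 over STAT3ko (SE 0.29, unadjusted p = 0.0226, adjusted p = 1). It was 1 of the 9 with an unadjusted p under 0.05 in that interaction, and there were 0 in the other two.

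Around these enzymes, wider parts of the pathway were examined as lists, whose counts of genes that rose are to be read beside the 7.21% of all genes in CD4 and 9.01% in CD8 that rose over WT, and the 6.05% and 8.76% that rose over STAT3ko. Of the 7 genes for nucleotide synthesis that uses folate and for thymidylate supply, all 7 rose in STAT3ko PD-1ko over WT in both subsets, and 7 in CD4 and 6 in CD8 rose over STAT3ko. Among them, Gart, which uses a folate carbon in purine synthesis, rose 1.98-fold in CD4 (log2 0.99, SE 0.14, adjusted p = 0.00782) and 2.02-fold in CD8 (1.02, SE 0.14, adjusted p = 0.00716) over WT. Dut, which makes dUMP, the substrate of TYMS, rose 2.20-fold in CD4 (adjusted p = 0.00671) and 1.69-fold in CD8 (adjusted p = 0.0226). The median log2 fold changes of this list over WT were 0.99 in CD4 and 0.81 in CD8, beside 1.05 and 0.82 for the 9 genes. Over WT, the count of 7 fell to 4 and 2 without WT CD4 replicate 1 and 2, to 0 without either STAT3ko PD-1ko CD4 library, to 4 and 2 without WT CD8 replicate 1 and 2, and to 2 and 0 without STAT3ko PD-1ko CD8 replicate 1 and 2.

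Of 9 tested genes of the folate cycle and transport, 3 rose over WT in each subset, among them Slc19a1, the reduced folate carrier (1.99-fold in CD4 and 2.05-fold in CD8), and Fpgs, which adds glutamates that hold folate in the cell (1.81-fold and 1.65-fold). The median log2 fold change of the 9 was 0.23 in CD4 and 0.14 in CD8. In CD4 the count of 3 fell to 1 without either WT library and to 0 without either STAT3ko PD-1ko library, and in CD8 to 2 and 1 without WT replicate 1 and 2 and to 0 without STAT3ko PD-1ko replicate 2. Over STAT3ko the count was 3 in CD4 and 4 in CD8, with Ggh added. Of 5 tested genes of glycine cleavage and glycine metabolism, Gldc and Gcsh, subunits of the glycine cleavage system, rose in all 4 comparisons of STAT3ko PD-1ko, and over WT the call of Gcsh was lost without any 1 of the WT or STAT3ko PD-1ko libraries of a subset. Amt, a further subunit of that system, had 1 to 8 counts per library and was not tested. Gldc stood at 13.5 and 15.8 CPM in WT CD4 libraries, 12.5 and 10.2 in STAT3ko and 90.7 and 97.2 in STAT3ko PD-1ko. Gldc levels in CD8 were 41.0 and 44.2 CPM in WT, 40.9 and 29.3 in STAT3ko and 196 and 216 in STAT3ko PD-1ko. Gldc rose 6.51-fold over WT in CD4 (adjusted p = 0.00108) and 4.87-fold in CD8 (adjusted p = 0.00197), and 8.37-fold and 5.92-fold over STAT3ko, each more than any of the 9 genes in the same comparison. It was called in every fit that left out 1 library except over STAT3ko without STAT3ko PD-1ko CD4 replicate 2 and without STAT3ko PD-1ko CD8 replicate 2.

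Among genes of serine use and serine carriers, 2 of 8 tested rose in CD4 (3 with the replicate block, Sfxn2 added) and 2 of 9 in CD8 over WT, with medians of -0.01 and 0.03 on the log2 scale. The CD4 count fell to 1 without WT replicate 2 and to 0 without WT replicate 1 or either STAT3ko PD-1ko library, and the CD8 count to 0 without WT replicate 2, to 1 without STAT3ko PD-1ko replicate 1 and to 0 without STAT3ko PD-1ko replicate 2. Sfxn1, the mitochondrial serine carrier, rose 1.59-fold in CD4 and 1.61-fold in CD8 (adjusted p = 0.033 and 0.0101). Slc1a4, a plasma membrane carrier of neutral amino acids including serine, rose 3.51-fold and 3.23-fold (adjusted p = 0.0276 and 0.0136), from low counts of 14 to 37 per library in WT. Sfxn3, a related carrier, fell in CD8 by 0.88 on the log2 scale over WT (SE 0.12, adjusted p = 0.00696) and in both subsets over STAT3ko. Of 8 tested genes of the methionine cycle, which takes up the methyl carbon of folate, 0 were called over WT in CD4 (1, Ahcy, at an unadjusted p under 0.05, by DESeq2 and with the replicate block) and 2 in CD8, Ahcy at 1.53-fold and Mtr at 1.38-fold (adjusted p = 0.032 and 0.0305), both calls being lost without any 1 of the WT or STAT3ko PD-1ko CD8 libraries. Over STAT3ko 0 were called (1, Ahcy, with the replicate block in CD4), with 1 and 2 at an unadjusted p under 0.05 and 1 and 0 by DESeq2. Of all genes tested, 3438 of 11959 passed at that unadjusted p over WT in CD4, and 3512 of 11959 in CD4 and 4128 of 12002 in CD8 over STAT3ko. With the replicate block in CD4, 13.8% of all genes rose over WT and 13.2% over STAT3ko. As compared with WT, STAT3ko called 0 of the list genes tested in either subset, 64 in CD4 and 67 in CD8, with 1 and 8 at an unadjusted p under 0.05 and 0 and 2 by DESeq2. Among all genes tested, 1259 of 11959 in CD4 and 1315 of 12002 in CD8 had such an unadjusted p.

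ATF4 and MYC are transcription factors known to drive genes of serine synthesis. The ATF4 list holds Atf4 and some of its targets, and the MYC list holds members of the MYC and MAX family, not their targets. Of 9 tested genes of the ATF4 list outside the 9 enzymes, 1 rose over WT in CD4 and 3 in CD8, where 3 and 4 had an unadjusted p under 0.05 and DESeq2 called 2 and 3. Of all genes tested, 3438 of 11959 in CD4 and 4079 of 12002 in CD8 had an unadjusted p under 0.05 over WT. With the replicate block in CD4, 3 rose (Aldh18a1 and Pycr1 added) and Ddit3 fell by 1.13 on the log2 scale (adjusted p = 0.0124). Of all genes, 26% were called over WT with that block and 13.8% were called higher. The median log2 fold change of the list was 0.07 in CD4 and 0.20 in CD8. The CD4 call was lost without STAT3ko PD-1ko replicate 2, and the CD8 count fell to 0 without STAT3ko PD-1ko replicate 2. Asns, asparagine synthetase, stood at 7.87 and 8.55 CPM in WT CD4 libraries, 6.22 and 5.11 in STAT3ko and 28.9 and 39.7 in STAT3ko PD-1ko, and rose 4.24-fold over WT (log2 2.08, SE 0.23, adjusted p = 0.00414). Asns rose 3.33-fold in CD8 (log2 1.74, SE 0.29, adjusted p = 0.0111). Pycr1 and Aldh18a1 of proline synthesis were the others in CD8, Pycr1 from 9 and 8 counts in WT to 35 and 55. Over STAT3ko, Asns and Pycr1 rose in both subsets, and with the replicate block in CD4 Ddit3 fell by 1.01 on the log2 scale (adjusted p = 0.021).

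Atf4 itself was called in none of the comparisons, with a log2 fold change over WT of -0.35 in CD4 (SE 0.39, adjusted p = 0.602) and -0.42 in CD8 (SE 0.36, adjusted p = 0.459). Its libraries numbered 1 were above those numbered 2 in all 6 groups, at 410 against 203 CPM in WT CD4 and 417 against 210.4 in WT CD8. Myc showed the same split, with 77.5 against 65.9 CPM in WT CD4, 80.9 against 43.6 in STAT3ko CD4 and 97.8 against 56.7 in STAT3ko PD-1ko CD4. Its log2 fold change over WT was 0.13 in CD4 (SE 0.33, adjusted p = 0.839) and 0.39 in CD8 (SE 0.34, adjusted p = 0.48). Of the MYC and MAX list, 0 of 4 tested in CD4 and 0 of 6 in CD8 were called over WT, with 2 in each at an unadjusted p under 0.05 (Mxd1 and Mxi1) and 1 and 0 by DESeq2. At that unadjusted p, 3438 of 11959 genes of the whole table passed in CD4 and 4079 of 12002 in CD8. With the replicate block in CD4, Mxi1 rose (adjusted p = 0.0227) and Mxd1 fell by 1.46 on the log2 scale (adjusted p = 0.00413). That block called 26% of all genes over WT and 26% over STAT3ko. Over STAT3ko 0 were called in both, with 2 and 0 at an unadjusted p under 0.05, where 3512 of 11959 and 4128 of 12002 of all genes passed. DESeq2 called 0 in either, and Mxd1 fell in CD4 with the replicate block (adjusted p = 0.00889).

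**Figure D3:**
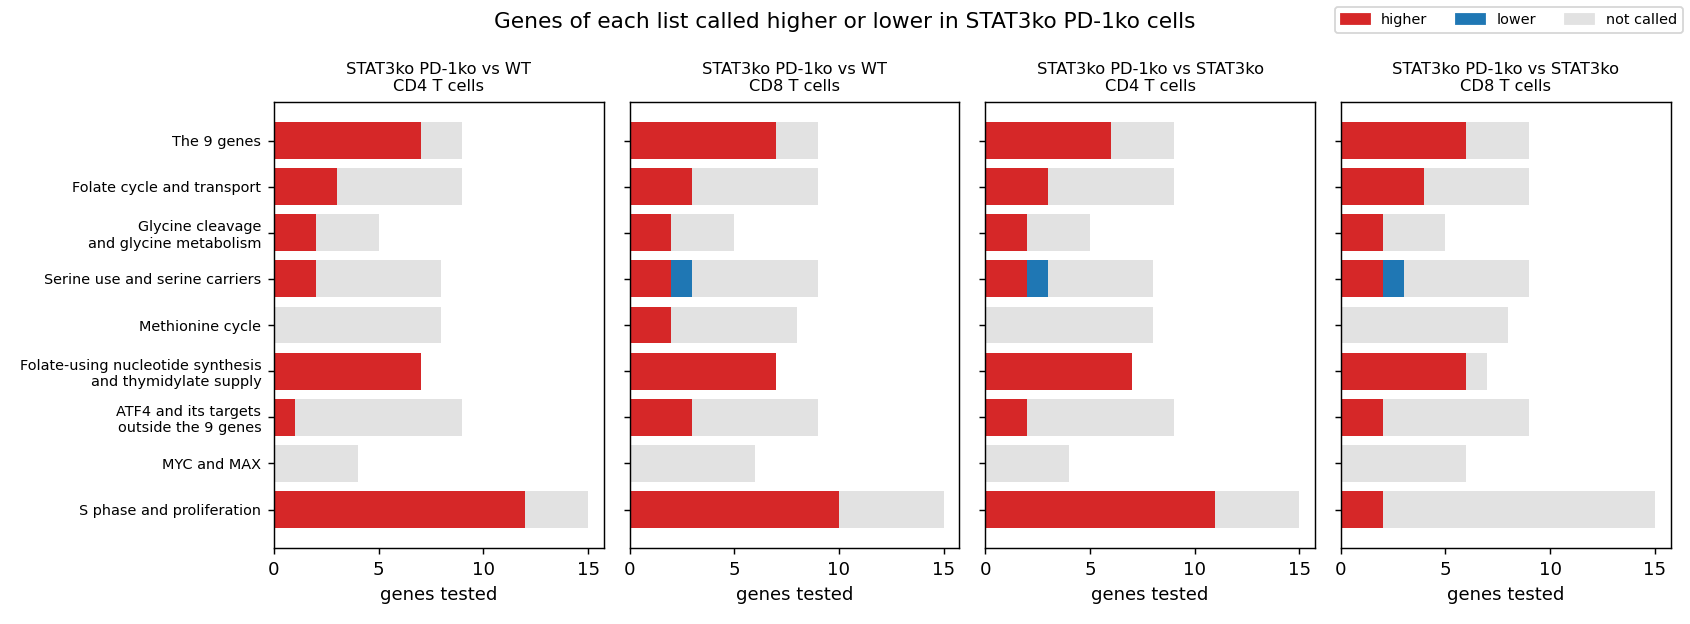
Stacked bars give, for the 9 genes and the 8 wider lists (rows), how many of the genes tested (x axis, grey) were called higher (red) or lower (blue) in STAT3ko PD-1ko T cells, in 4 comparisons. The 9 genes and the nucleotide list are filled for 6 or 7 of their members in every panel, while the methionine and MYC lists have at most 2 called, and 2 of 15 S phase genes are called in CD8 over STAT3ko.

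Most genes of S phase and proliferation rose over WT in both subsets and over STAT3ko in CD4, and few were called over STAT3ko in CD8. Of 15 tested, 12 rose over WT in CD4 and 10 in CD8, where 7.21% and 9.01% of all genes did, among them Mcm7 (2.17-fold and 1.77-fold), a subunit of the replicative helicase, and Rrm1 (2.03-fold and 1.62-fold) of ribonucleotide reductase. Over STAT3ko 11 rose in CD4 and 2 in CD8 (Ccne1 and Mcm7), where 6.05% and 8.76% of all genes did. In CD8, 8 had an unadjusted p under 0.05, all higher, where 4128 of 12002 genes of the whole table had one in either direction, and DESeq2 called 5. With the replicate block in CD4, 15 rose over WT (Ccne2, Pcna and Top2a added) and 13 over STAT3ko (Ccne2 and Mcm6 added), where 13.8% and 13.2% of all genes did. The medians over WT were 0.90 in CD4 and 0.66 in CD8, and over STAT3ko 0.76 and 0.41, on the log2 scale. Without either STAT3ko PD-1ko CD4 library, or without STAT3ko PD-1ko CD8 replicate 2, 0 of these genes were called over WT, and there were 4 without WT CD4 replicate 2, 1 without WT CD8 replicate 2 and 2 without STAT3ko PD-1ko CD8 replicate 1. Over STAT3ko, the 11 in CD4 fell to 5 and 4 without STAT3ko replicate 1 and 2 and to 0 without either STAT3ko PD-1ko library. The summed level of these 15 genes was 4898 and 3858 CPM in WT CD4 libraries, 5491 and 4865 in STAT3ko and 7833 and 7519.7 in STAT3ko PD-1ko. The CD8 sums were 6891 and 5532 CPM in WT, 8639.96 and 7678 in STAT3ko and 9229.6 and 8808 in STAT3ko PD-1ko. As a median over the 15 genes of log2 CPM less each gene's mean, the CD8 libraries stood at 0.15 and -0.20 in WT, 0.32 and 0.16 in STAT3ko and 0.64 and 0.59 in STAT3ko PD-1ko. On the same scale, the median of the 9 genes was 0.13 and -0.05 in WT CD8, 0.18 and -0.05 in STAT3ko CD8 and 0.71 and 0.86 in STAT3ko PD-1ko CD8, so both medians were highest in the STAT3ko PD-1ko libraries. In STAT3ko over WT, 0 of the 15 genes were called in either subset. Their median log2 fold changes were 0.19 in CD4 and 0.28 in CD8, beside -0.05 and -0.02 for the 9 genes. At an unadjusted p under 0.05, 1 passed in CD4 and 5 in CD8, where 1259 of 11959 and 1315 of 12002 of all genes did. DESeq2 called 0 and 2. The part of cell division in the levels of the 9 genes was not tested.

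**Figure D4:**
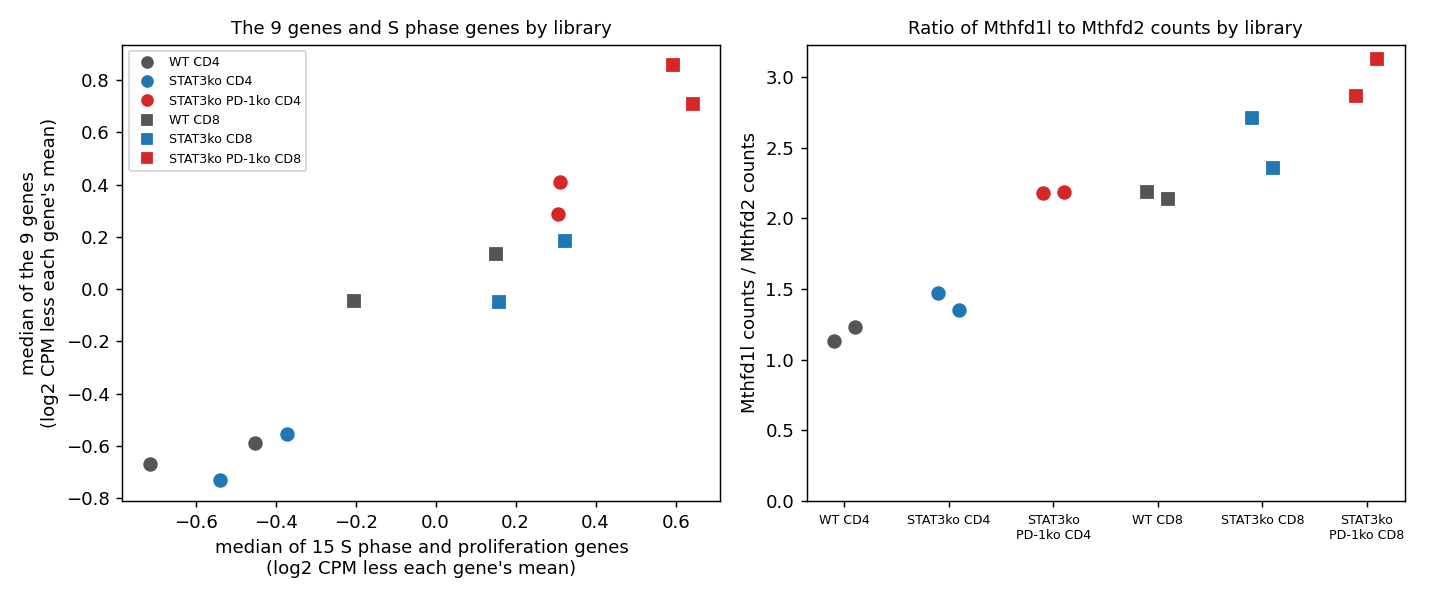
On the left, the median of the 9 genes in each library (y axis, log2 CPM less each gene's mean) is plotted against the median of 15 S phase and proliferation genes on the same scale (x axis), and the STAT3ko PD-1ko CD8 libraries (red squares) are highest on both, at 0.71 and 0.86 against 0.64 and 0.59. On the right, the ratio of Mthfd1l to Mthfd2 counts in each library (y axis, from 0) runs from 1.13 in a WT CD4 library to 3.13 in a STAT3ko PD-1ko CD8 library.

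The genes nearest to each member were sought among 8590 genes by the root mean square difference of centred log2 CPM over the 12 libraries. Nearest to the median of the 9 were Ipo5, a nuclear import receptor (0.08), Nup93, of the nuclear pore (0.08), and Dut (0.08), where the median profile itself had a root mean square of 0.52. Gart (0.11) and Dut (0.12) were nearest to Mthfd1, and Fpgs was second to Shmt2 (0.15). Ska1 and Ccnb1, genes of mitosis, were nearest to Tyms (0.10 and 0.11). Mthfd2 had other neighbours, Afg3l2, Nob1 and Timm44 (0.05, 0.06 and 0.07), against a root mean square of 0.17 of its own.

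Markers of other cell types were read in the same libraries. The 12 hepatocyte genes summed to 0.606 to 2.44 CPM per library, with 2 to 7 of them at 0, and the globin genes were at 0 in all 12 libraries. Neutrophil genes summed to at most 1.02 CPM. The 4 liver sinusoidal endothelium genes, nearly all Pecam1, summed to 110 to 198 CPM per library, and 0 were called between genotypes in either subset. The 9 macrophage genes, mostly Cd68, summed to 30.1 and 36.9 CPM in WT, 27.8 and 33.5 in STAT3ko and 17.9 and 19.4 in STAT3ko PD-1ko CD8 libraries, and to 9.23 and 17.1, 7.25 and 13.5, and 9.56 and 11.3 in the CD4 libraries of the same genotypes. Of the 7 macrophage genes tested, the median log2 fold change in STAT3ko PD-1ko was -2.27 over WT and -2.13 over STAT3ko in CD4, and -2.41 and -1.81 in CD8. Cd68 fell in CD8 (log2 fold change -0.71 over WT and -0.63 over STAT3ko, adjusted p = 0.0154 and 0.0232), and none of the 7 was called in CD4 without the replicate block. With the block, Csf1r and Clec4f fell over WT in CD4 (log2 fold change -2.90 and -2.49, adjusted p = 0.0355 and 0.0207), and Clec4f over STAT3ko (-2.18, adjusted p = 0.0393). Csf1r had 2 and 31 reads in the WT CD4 libraries, 2 and 18 in STAT3ko and 2 and 2 in STAT3ko PD-1ko, and Clec4f had 2 and 39, 4 and 25, and 1 and 6, so in each case 1 library of WT and 1 of STAT3ko held most of the reads. Of the 4 dendritic cell genes, Siglech was at 0 in every library. Itgax, which activated T cells also express, made up nearly all of their sum, and stood at 392 and 363 CPM in WT, 220 and 243 in STAT3ko and 27.8 and 20.2 in STAT3ko PD-1ko CD8, and at 70.5 and 62.2, 25.9 and 27.7, and 4.98 and 5.72 in CD4. It fell in STAT3ko over WT in CD4 (log2 fold change -1.30, adjusted p = 0.0377) and was not called in CD8 (-0.70, adjusted p = 0.252), and it fell in STAT3ko PD-1ko over both other genotypes in both subsets (log2 fold changes of -2.31 to -3.97). The 4 B cell genes summed to 1.63 to 2.35 CPM in CD4 libraries and, mostly Cd79b, to 14.7 and 10.7 in WT CD8, 12.6 and 13.8 in STAT3ko CD8 and 6.01 and 5.22 in STAT3ko PD-1ko CD8, where Cd79b fell over WT by 1.18 and over STAT3ko by 1.23 on the log2 scale (adjusted p = 0.0149 and 0.0143). The 3 NK cell genes, nearly all Klrb1c, summed to 10.2 to 18.7 CPM in CD4 libraries and to 49.0 and 56.3 in WT CD8, 29.3 and 52.6 in STAT3ko CD8 and 22.9 and 11.2 in STAT3ko PD-1ko CD8, where Klrb1c fell over WT by 1.62 on the log2 scale (adjusted p = 0.028) and had a log2 fold change of -1.25 over STAT3ko (adjusted p = 0.0603). T cell genes summed to 6309 and 5882 CPM in WT CD4, 5760 and 5556 in STAT3ko CD4, 5222 and 5022 in STAT3ko PD-1ko CD4, 6033 and 5977 in WT CD8, 5498 and 5770 in STAT3ko CD8 and 4488 and 4525 in STAT3ko PD-1ko CD8, and 1 of 8 in CD4 (4 with the replicate block) and 4 of 8 in CD8 fell over WT, and 0 of 8 in CD4, with and without the block, and 3 of 8 in CD8 fell over STAT3ko. Of all genes tested, 676 of 11959 in CD4 and 985 of 12002 in CD8 fell over WT, and 601 and 966 over STAT3ko. With the block in CD4, 26% of all genes were called in either direction over WT. Cd8a and Cd8b1 together summed to 2223 and 2395 CPM in WT CD8, 2060 and 2368 in STAT3ko CD8 and 1149 and 1173 in STAT3ko PD-1ko CD8, and both genes fell there over WT and over STAT3ko. In the CD4 libraries Cd8a stood at 0.50 and 0.80 CPM in WT, 0.42 and 1.96 in STAT3ko and 1.13 and 5.64 in STAT3ko PD-1ko. With the replicate block it rose in STAT3ko PD-1ko CD4 over WT and over STAT3ko (log2 fold change 2.21 and 1.48, adjusted p = 0.00883 and 0.0304). Cd4 stood at 1844 and 1881 CPM in WT CD4, 1695 and 1887 in STAT3ko CD4 and 1323 and 1242 in STAT3ko PD-1ko CD4, and fell over WT by 0.52 on the log2 scale (adjusted p = 0.0375) and, with the block, over STAT3ko by 0.46 (adjusted p = 0.0204). Regulatory T cell genes Foxp3, Ikzf2 and Il2ra summed to 375 and 396 CPM in WT CD4, 305 and 328 in STAT3ko CD4 and 397 and 308 in STAT3ko PD-1ko CD4. Foxp3 and Ikzf2 were lower in STAT3ko PD-1ko CD4 over WT (log2 fold change -2.91 and -1.11, adjusted p = 0.00395 and 0.0185) and over STAT3ko (-2.59 and -1.69, adjusted p = 0.00728 and 0.00865), and Il2ra was higher over STAT3ko (0.83, adjusted p = 0.0263). In CD8, Foxp3 was lower over WT and STAT3ko (-1.19 and -1.52, adjusted p = 0.0458 and 0.0241), and Il2ra higher over STAT3ko (0.71, adjusted p = 0.0143). The part of these differences in the levels of the 9 genes was not tested.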

How the data were processed

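Donor T cells from liver were profiled in 12 libraries (6 groups of 2), each made from cells of combined recipients. Within a subset, p-values measure the spread between such pools. CD4 and CD8 libraries of the same genotype and number are not separate pools, as described below. Without a block for that pairing, the fits of all 12 libraries treat them as separate, so those p-values do not measure the spread between pools. The authors aligned single-end reads to mm10 with STAR and counted RefSeq genes with HTSeq; the deposited tables hold raw counts per gene and RPKM, which the authors scaled by exon length and sequencing depth. The kit is named differently in the labels and in the methods of the study, and the strand setting of the counting is not given in the sources used here, so reads of overlapping genes may not be separated. A cell-line protocol in the labels does not describe these cells and was not used.

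Counts were tested with edgeR 4.0.16 (filterByExpr with a minimum count of 10, TMM, glmQLFTest) in R 4.3.3, with Benjamini-Hochberg adjustment over all genes tested and a call at an adjusted p under 0.05. The 6 libraries of a subset entered 1 fit, and the 12 libraries entered the fit for CD8 against CD4 and the interactions. The SE is the log2 fold change divided by the square root of F. CPM used the TMM factors of the 12 libraries, and RPKM was used for levels between genes. RPKM was also tested with limma 3.58.1 on log2(RPKM + 1) and log2(RPKM + 0.1). DESeq2 1.42.0, other filters and scaling, blocks and leaving out each library were tried as alternatives, and the steps were tested on simulated data. Replicates of a group differed by more than sampling noise.

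The 9 genes and the lists were chosen with earlier results of these data known. Named are all 9 genes, Stat3 and Pdcd1, list genes called in any within-subset comparison (up to 6 a list, by lowest adjusted p; fewer are printed here, and 1 gene counted in the lists is not reported by name), and the 3 nearest genes of a profile. Amt, Atf4, Myc and Tyms-ps are named as well. The promoter motifs and the count ratios were chosen after the values were seen. Libraries of the same number in CD4 deviated together from their group means in all 3 pairs of groups (correlation across genes 0.22 to 0.829), so the replicate number was used as a block beside the CD4 results given here where it changed a call; in CD8 the lowest correlation was 0.0387. The supplement of the study gives the CD8 cells as taken from the same livers as the CD4 cells. CD4 and CD8 samples were matched by genotype and by the number in the labels, and their deviations from the group means correlated at 0.642 to 0.874 over 8599 genes in 3 pairs, so that pairing was used as a block beside the comparison of the subsets.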

Additional observations from a re-analysis of the deposited data

How the results depend on the processing

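The 7 genes called over WT were the same 7 in CD4 under DESeq2, RLE scaling, both other filters, the 4 libraries alone, all 12 libraries, the replicate block and both RPKM tests, and in CD8 likewise except that all 12 libraries together called 6, without Tyms. Leaving out libraries gave 1 to 7 in CD4 and 0 to 7 in CD8 over WT, and 0 to 6 in CD4 and 0 to 6 in CD8 over STAT3ko; these fits hold fewer samples, and a group left with 1 library is assumed to vary like the others. The genes called over the whole table then ran from 1 to 49 and from 0 to 2 for STAT3ko over WT (CD4, CD8), from 62 to 1947 and from 111 to 1908 for STAT3ko PD-1ko over WT, from 0 to 1212 and from 2 to 1878 for STAT3ko PD-1ko over STAT3ko, and from 1 to 9 for the interaction of STAT3ko PD-1ko over WT.

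For STAT3ko over WT in CD4, 40 genes became 271 with DESeq2 (with and without its filtering), 165 with genes of at least 1 count, 303 with the replicate block, 1 with the 4 libraries alone and 164 with all 12. In CD8, 7 became 218 (206 without filtering), 66, 1 with at least 10 counts in every library, 0 with 4 libraries and 20 with 12. For STAT3ko PD-1ko in CD4, 1538 over WT became 3104 with the replicate block and 2462 with 12 libraries, and 1324 over STAT3ko became 2100 with DESeq2 (2098 without filtering), 3105 and 2299. CD8 against CD4 went from 3145 to 5590 with the replicate block within genotype. The interactions, 0, 1 and 0 genes, became 5, 75 and 21 (18 without filtering) with DESeq2; the second became 50 with at least 1 count, 28 with the replicate block and 84 by pool, and the third 9 with at least 1 count and 22 by pool. The cause of these shifts was not tested. In CD8, where libraries of the same number correlated at 0.0387 to 0.839 over 3 pairs of groups and were not taken as pairs, the replicate block called 7 of the 9 genes over WT and 8 over STAT3ko, with Mthfd2 and Tyms added (adjusted p = 0.0361 and 0.0495), where 24.7% and 24.4% of all genes were called. In CD4 it called 7 and 9 of the 9 genes. Myc over WT was not called with it (adjusted p = 0.791 in CD4 and 0.0998 in CD8).

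Of 1548 alternative fold changes of the 9 genes, 58 reversed, and the largest of their values as reported was 0.24 in size, none of them called. For STAT3ko over WT in CD4, Phgdh, at 0.00303, became -0.00617 with DESeq2 (both settings), -0.00615 with RLE, -0.000275 with at least 10 counts, -0.0171 with 4 libraries, -0.000897 with 12, and -0.0116 and -0.0127 with RPKM, and Shmt2 became -0.00724 with 4 libraries. Leaving out libraries moved this comparison from -0.076 to 0.0793 (Phgdh), -0.14 to 0.0928 (Psat1), -0.10 to 0.13 (Shmt2) and -0.11 to 0.00471 (Mthfd1) in CD4, and from -0.00955 to 0.13 (Phgdh), -0.48 to 0.12 (Shmt1), -0.23 to 0.11 (Shmt2), -0.25 to 0.20 (Mthfd1) and -0.14 to 0.19 (Mthfd1l) in CD8. Psph in STAT3ko PD-1ko CD8 over WT ran from -0.13 to 0.16. For the interaction of STAT3ko over WT, Phgdh ran from -0.0205 to 0.14, Psph from -0.0665 to 0.24, Shmt1 from -0.0934 to 0.50, Shmt2 from -0.24 to 0.0884, Mthfd1 from -0.19 to 0.26, Mthfd1l from -0.0709 to 0.25 and Tyms from -0.49 to 0.11. For the interaction of STAT3ko PD-1ko over WT, Psat1 ran from -0.21 to 0.0405, Shmt2 from -0.32 to 0.0582 and Mthfd1 from -0.35 to 0.0568. For the interaction of STAT3ko PD-1ko over STAT3ko, Shmt2 ran from -0.25 to 0.12, Mthfd1 from -0.40 to 0.029, Mthfd2 from -0.0757 to 0.0501 and Tyms from -0.50 to 0.0111.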
